A study of Rattus norvegicus with 15 samples.

Results

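Regulators of cell cycle arrest and senescence, the 8 genes Cdkn1a, Cdkn1b, Cdkn2a, Cdkn2b, Cdkn2c, Mdm2, Lmnb1 and Gdf15, were followed in rat knee articular cartilage over 5 stages of life. The list of names was drawn up with earlier results of these data known. Probe sets were then taken by symbol from the array's annotation: every probe set whose single gene symbol was one of these names was used. Each of the 8 genes had exactly 1 such probe set, so they stand for 8 of 36685 probe sets and 8 of the 18166 genes that the annotation names. All 8 entered every test, since no filter on low signals was applied.

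The samples came from Sprague-Dawley rats, whose right knee cartilage was taken joint by joint. T0 was newborn, T1 youth, T2 adult, T3 the early and T4 the latter stage of elderly animals. Each stage had 3 arrays, which the labels call biological replicates, and no group carried a treatment or an altered gene. The labels used here give stages only, with no age in days, sex or batch. Tissue was ground before RNA was extracted, so each array holds a bulk sample, and a lower signal from fewer cells of a type cannot be told apart from one from less RNA per cell. The series asks how transcripts change over successive stages, and the comparisons below ask when in that course each arrest gene differs.

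A cell that leaves the cycle does so largely through proteins that block the cyclin-dependent kinases (CDKs). The CIP/KIP inhibitors, p21 from Cdkn1a and p27 from Cdkn1b, bind CDK2 complexes, and the INK4 inhibitors from Cdkn2a, Cdkn2b and Cdkn2c bind CDK4 and CDK6, which keeps the retinoblastoma protein active and its E2F partners silent. p53 induces Cdkn1a and also Mdm2, the ubiquitin ligase that degrades p53. In senescent cells p16 from Cdkn2a is commonly high, lamin B1 from Lmnb1 is commonly low, and the stress cytokine GDF15 is commonly secreted. In growing cartilage these inhibitors accompany the exit of chondrocytes from division, while chondrocytes of the mature joint surface divide rarely.

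Values are log2 signals as the authors normalised them, so a difference of 1 is a doubling. Because probes differ in brightness, a level is compared only with the level of the same gene on other arrays. A difference is given with the standard error of the linear model fitted with limma to all 15 arrays, and was called where the Benjamini-Hochberg adjusted p over all probe sets was under 0.05. Stages are said to overlap where at least 1 array of the lower stage lies above 1 array of the higher.

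T1 replicate 3 is called adult in 1 of its labels and youth in the others, and was kept in T1. The arrays themselves differed with stage. The spread of signals over an array's probe sets was 2.00 to 2.05 (SD) at T0 to T2, 1.83 to 1.97 at T3 and 1.48 to 1.71 at T4, and the mean correlation between arrays of a stage was 0.977 at T0 and 0.839 at T4. The median signal of 1185 olfactory receptor genes, which serve in the nose, was 2.84 to 3.03 at T0 to T2, 3.00 to 3.41 at T3 and 3.57 to 4.38 at T4. T4 replicate 1 had the highest of these medians and the lowest median of 52 ribosomal protein genes, 6.60. Of 7 measured chondrocyte markers 6 fell from T2 to T4, and Col2a1, type II collagen, was at 12.36 ± 0.06 at T0 and 8.0 ± 1.47 at T4 (SD, n = 3). Markers of other tissues moved as well: the mean of 5 erythroid genes was 4.90 to 6.21 on the T0 arrays and 10.6 to 10.8 on the T1 arrays, that of 9 myeloid genes was 5.28 to 6.46 and then 9.30 to 9.84, and that of 6 skeletal muscle genes went from 10.99 to 11.52 at T0 to 4.68 to 5.11 at T2. The part of any of these in the results below was not tested, and the ranges of these marker lists apply to every result over the same spans.

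Of the 8 genes, 7 differed among the 5 stages in limma's F test, where 60.1% of all probe sets were called, so that this count by itself sets the genes little apart from the array. The exception was Cdkn2b (Benjamini-Hochberg adjusted p = 0.463). From T0 to T1, Cdkn1b rose and Cdkn1a fell, 1 gene each way, beside 4.01% of probe sets that rose and 3.54% that fell. From T1 to T2 no gene was called and none had an unadjusted p under 0.05 in limma, beside 0.488% of probe sets called higher and 0.403% called lower. From T2 to T3 again none was called, 2 had an unadjusted p under 0.05, and 0.0382% and 0.112% of probe sets were called higher and lower. From T3 to T4, 4 genes fell and none rose, beside 25.8% of probe sets that fell and 16.5% that rose. With only the 6 arrays of T3 and T4 in the fit none of the 4 was called, with limma adjusted p from 0.0576 to 0.0795. Over that last step 32.3% of the 18166 genes fell and 14% rose. Of the 52 ribosomal protein genes 61.5% fell and 7.69% rose, with a median difference of -1.46.

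Over the longer span from T0 to T2, Cdkn1b and Cdkn2c rose and Cdkn1a fell, beside 6.51% of probe sets called higher and 6.19% called lower. From T2 to T4, the signals of Gdf15 and of Cdkn2a, the latter under the 95th percentile of the olfactory receptor genes on every array, rose while Cdkn1b, Cdkn2c, Mdm2 and Lmnb1 fell, beside 27.2% and 29.4% of probe sets. The median difference over the 8 genes was -0.45 from T2 to T4, against -0.12 over all 18166 genes and -1.29 over the 52 ribosomal protein genes. The list counts below have as background the shares of all genes. From T0 to T1, 6.28% of all genes rose and 4.93% fell, and from T0 to T2 9.25% and 9.56%. Of all genes 38.4% fell and 25% rose from T2 to T4, and of the ribosomal protein genes 53.8% and 11.5%. Groups did not overlap for 6 of the 8 genes in that span, and for 62% of all probe sets. Quantile normalization of the deposited values moved the share of rises among the calls on all probe sets from 39% to 51.4% for T3 to T4, from 54.7% to 42.9% for T1 to T2 and from 25.5% to 0% for T2 to T3. It left 3 of the 6 calls on these genes from T2 to T4, namely Cdkn2a, Gdf15 and Mdm2, and Mdm2 alone of the 4 from T3 to T4.

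**Figure D1:**
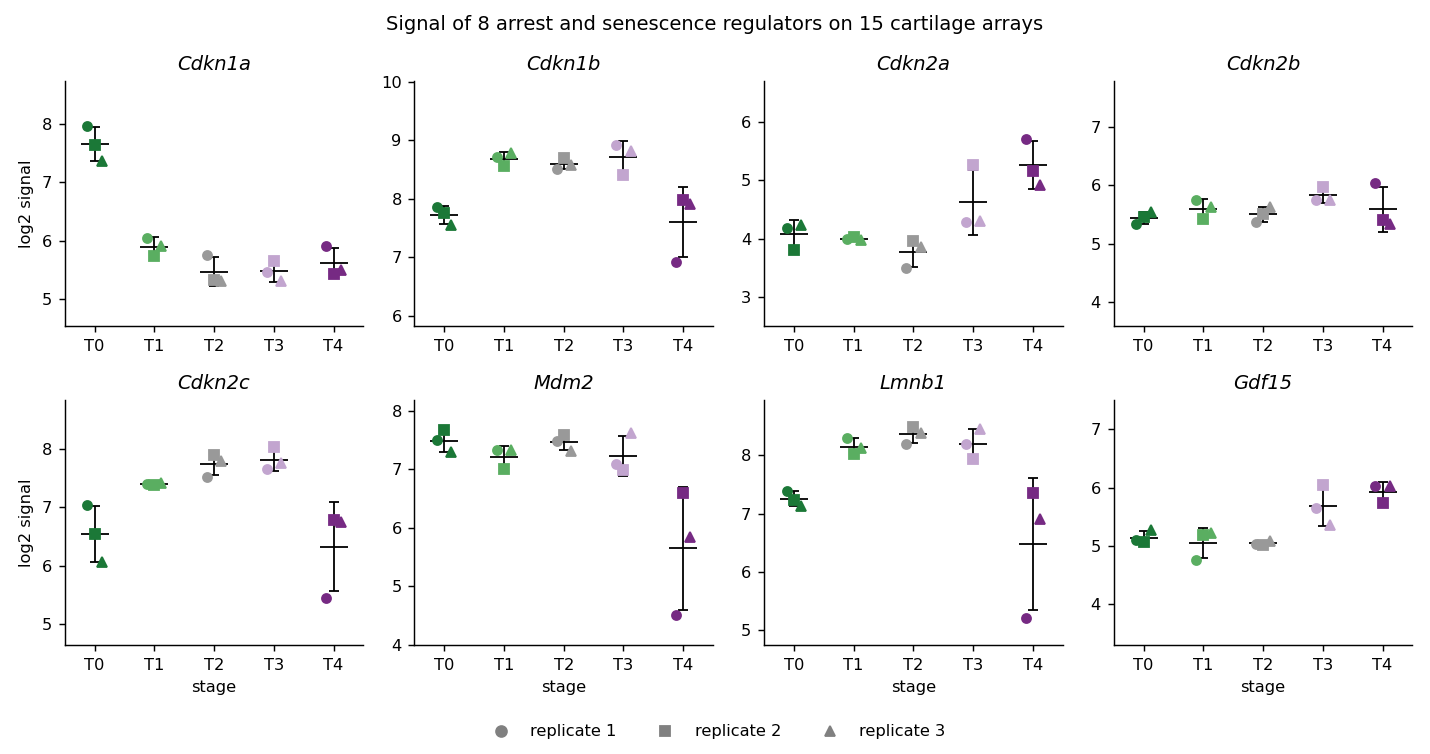
Log2 signal (vertical axes, 1 panel per gene, each spanning its own range of levels) of the 8 genes on the 3 arrays of each stage T0 to T4; marker shapes are replicates, the horizontal bar is the stage mean and the error bar its SD. Cdkn1a is high only at T0. Cdkn1b, Cdkn2c and Lmnb1 are higher on all T1 to T3 arrays than on any T0 or T4 array, with Cdkn2c still higher at T2 than at T1. T4 replicate 1 is the lowest array in Cdkn1b, Cdkn2c, Mdm2 and Lmnb1.

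Cdkn1a, which encodes the p53-induced CDK inhibitor p21, was high in the newborn and lower at every later stage. Its log2 signals were 7.96, 7.64 and 7.37 on the T0 arrays and 6.05, 5.74 and 5.92 on the T1 arrays. All 3 newborn arrays lay above all 12 later ones. The difference T1 minus T0 of -1.76 ± 0.22 (SE), a 3.38-fold lower signal, had an adjusted p of 0.000121 (limma, Benjamini-Hochberg). By T2 the signals were 5.76, 5.34 and 5.32, and the difference from T0 was -2.19 ± 0.22 (limma adjusted p = 6.91e-06), a 4.55-fold lower signal. The direction and the call held in all 24 alternatives for both spans. All 6 measured skeletal muscle markers fell over the same spans, with medians of -2.41 and -6.63. From T0 to T1, 3 of the 6 were called without T1 replicate 3, and 0 with that array placed with T2. The part of that tissue in the fall of Cdkn1a was not tested.

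From T2 onwards the Cdkn1a means were 5.47 ± 0.25, 5.48 ± 0.18 and 5.62 ± 0.26 (SD, n = 3) at T2, T3 and T4. These 3 stages and T1, at 5.90 ± 0.16, form a run in which each neighbour in the order of levels overlapped the next. On the 3 T4 arrays the signal lay below the 95th percentile of the olfactory receptor genes of the same array, which was 5.88 to 6.70 there. No step after T1 was called in the main test. Measured from the array's median olfactory receptor signal, however, the T4 arrays stood at 1.53 to 1.86, below T2 at 2.35 to 2.92 and T3 at 2.23 to 2.31.

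Cdkn1c, the remaining CIP/KIP gene, encodes the imprinted inhibitor p57 and moved like Cdkn1a early in life. It fell by 1.85 ± 0.23 on the log2 scale from T0 to T1 (limma adjusted p = 0.000121), and T2 minus T0 was -2.83 ± 0.23 (limma adjusted p = 1.17e-06). From T2 to T4 it rose by 0.58 ± 0.23 (limma adjusted p = 0.0424), a call that 12 alternatives lost, among them the fits without any 1 of the T0 arrays, T1 replicate 3, T2 replicate 2 or 3, T3 replicate 1, or T4 replicate 2 or 3.

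Promoter sequence was available for all 8 genes as windows of 300 bases around an annotated transcript start (250 before, 50 after) in RefSeq's GRCr8 assembly, 9 windows in all since Gdf15 has 2. They were searched on both strands for a p53 half-site (the general p53 consensus of 10 bases), an E2F site (GCGGGAA), a CHR element (TTTGAA) and a CCAAT box (CCAAT). The motifs do not contain each other, and a match describes the letters only. The stretch below is shown because Cdkn1a is the p53 target with the largest early fall among the 8 genes. It lies at chr20:7150682-7150819 on the plus strand, before the gene's outermost annotated start, and the capitals mark its p53 half-site, at -201 to -192 from the start of the window's transcript.

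Cdkn1a: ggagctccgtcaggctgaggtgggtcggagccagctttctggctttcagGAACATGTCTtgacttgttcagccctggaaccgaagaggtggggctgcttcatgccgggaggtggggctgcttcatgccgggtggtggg

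A p53 half-site was found in 7.98% of 33469 windows of the same length. Among the 8 genes it was found in Cdkn1a and Cdkn2c, whose signals moved in opposite directions from T0 to T2.

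Cdkn1b, which encodes the CDK inhibitor p27, followed a plateau. Its signals were 7.87, 7.75 and 7.55 at T0, then 8.72, 8.57 and 8.78 at T1. Every T1 array lay above every T0 array. The rise was 0.97 ± 0.26 on the log2 scale, 1.95-fold (limma adjusted p = 0.0315). It stayed in direction in all 24 alternatives but missed the threshold in 8 of them. These 8 include the removal of any 1 of the 6 arrays of T0 and T1, with adjusted p from 0.0643 to 0.121, and the placing of T1 replicate 3 with T2 (0.101).

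At T2 the Cdkn1b signals were 8.52, 8.70 and 8.59, and at T3 8.92, 8.41 and 8.82. T1, T2 and T3 overlapped each other and all 9 arrays lay above the newborn arrays. The difference T2 minus T0 was 0.88 ± 0.26 (limma adjusted p = 0.0351), and 9 of 24 alternatives lost the call. Among them were the fits without any 1 of the 6 arrays of T0 and T2 (0.0629 to 0.129), without T1 replicate 1 (0.0505) and without T1 replicate 3 (0.0502).

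At T4 the Cdkn1b signals were 6.91, 7.98 and 7.92, all below the 3 T3 arrays. T4 minus T3 was -1.11 ± 0.26 (limma adjusted p = 0.00446) and T4 minus T2 was -0.997 ± 0.26 (limma adjusted p = 0.00478). After quantile normalization the difference T4 minus T2 was 0.0013 (limma adjusted p = 0.997), and T4 minus T3 was -0.36 (limma adjusted p = 0.211). Among the 4 falls from T2 to T4 this was the one whose direction quantile normalization did not keep.

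Cdkn2c encodes the INK4 inhibitor p18 and ran parallel to Cdkn1b. Its signals were 7.03, 6.55 and 6.07 at T0 and 7.39, 7.37 and 7.41 at T1. The T1 arrays were higher, without overlap, and nearly equal to each other. The difference of 0.85 ± 0.32 was not called (limma adjusted p = 0.168), although it was called without T4 replicate 1 (0.0219) and without all T4 arrays (0.0292).

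By T2 the Cdkn2c signals were 7.52, 7.89 and 7.79, above all T1 arrays. The rise from T0 was 1.19 ± 0.32 on the log2 scale, 2.28-fold (limma adjusted p = 0.0230). It missed the threshold without T0 replicate 2 (0.0706), T0 replicate 3 (0.119), T2 replicate 2 (0.0931) or T2 replicate 3 (0.0774), and after quantile normalization (0.202). T3, at 7.65, 8.03 and 7.76, overlapped T2.

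At T4 the Cdkn2c signals dropped to 5.45, 6.78 and 6.74, below all arrays of T1 to T3. T4 minus T3 was -1.49 ± 0.32 (limma adjusted p = 0.00327) and T4 minus T2 was -1.41 ± 0.32 (limma adjusted p = 0.0023). After quantile normalization the second was -0.83 and no longer called (limma adjusted p = 0.127). Replicate 1, the array with the narrowest spread of signals, was the lowest by more than 1, and its Cdkn2c signal lay under the 95th percentile of its own olfactory receptor genes.

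The stretches below are shown because Cdkn1b and Cdkn2c moved together at the start and at the end of the series. The Cdkn1b windows hold the 2 CCAAT boxes of that gene, at chr4:169491343-169491372 and chr4:169491423-169491452 on the plus strand. The Cdkn2c window, at chr5:129644876-129644905 on the minus strand, holds a p53 half-site and an E2F site. They lie on both sides of the start of the window's transcript. These stretches lie inside the annotated genes, whose outermost starts are at chr4:169491273 for Cdkn1b and chr5:129645564 for Cdkn2c. Capitals mark the motifs.

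Cdkn1b upstream box: cccggcgcccagaCCAATggagctcctcct

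Cdkn1b downstream box: cttccaccgccatATTGGgcaactaaaaaa

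Cdkn2c: cttGAGCTAGCTCggtcgtagGCGGGAAgt

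CCAAT boxes stood in 37.5% and E2F sites in 4.21% of all windows, and CHR elements in 18.3%. The Lmnb1 window held a CHR element and a CCAAT box, as did that of Mdm2. That of Cdkn2b held a CHR element, one Gdf15 window a CCAAT box and the other an E2F site, and that of Cdkn2a none of the 4 motifs. No motif was common to Cdkn1b, Cdkn2c and Lmnb1, the genes whose signals were higher at T1 to T3 than at T0 and T4.

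Cdkn2a is the locus of p16 and, from an alternative first exon, of ARF, the inhibitor of MDM2. Its single probe set does not separate these transcripts. The signals were 4.19, 3.80 and 4.24 at T0, 4.0, 4.02 and 3.97 at T1 and 3.49, 3.95 and 3.86 at T2. At T3 they were 4.29, 5.26 and 4.31, and at T4 5.71, 5.17 and 4.92. Every T3 and T4 array was higher than every earlier array.

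Between T2 and T4, the Cdkn2a signal rose by 1.495 ± 0.28 (limma adjusted p = 0.000572), in 3 of 3 arrays, and the call held in all 21 alternatives that could test it. The step from T2 to T3 was 0.85 ± 0.28 (limma adjusted p = 0.130) and that from T3 to T4 was 0.64 ± 0.28 (limma adjusted p = 0.0750), neither called. The first passed the threshold without T3 replicate 3 (0.0494), the second without T3 replicate 2 (0.00801) or T4 replicate 3 (0.0464). From T0 to T2 the difference was -0.31 ± 0.28 (limma adjusted p = 0.673).

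The Cdkn2a signal lay below the 95th percentile of the olfactory receptor genes on all 15 arrays, and both filters on dim probe sets removed it, so no fold is given. Measured from the array's median olfactory receptor signal, Cdkn2a stood at 1.13 ± 0.24 in newborn, 1.10 ± 0.04 in youth, 0.85 ± 0.18 in adult, 1.41 ± 0.40 in T3 and 1.38 ± 0.20 in T4 cartilage (log2, SD, n = 3). On that scale the T4 arrays, 1.22 to 1.60, overlapped the T0 arrays, 0.88 to 1.35, but not the T2 arrays, 0.65 to 1.01. Of the 1185 olfactory receptor genes, 55% were also called higher in T4 than in T2, with a median difference of 0.84.

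Cdkn2b encodes p15, the INK4 inhibitor that TGF-beta induces, and lies beside Cdkn2a in the same chromosomal region. Its signals kept within 5.34 to 6.03 over the 15 arrays. The stage means were 5.44 ± 0.10 at T0, 5.60 ± 0.16 in youth, 5.50 ± 0.12 at T2, 5.83 ± 0.13 at T3 and, on the last arrays, 5.59 ± 0.38 (SD, n = 3). T3 stood above T2 without overlap, by 0.32 ± 0.20 (limma adjusted p = 0.384). No comparison was called in the main test, and on the T4 arrays the signal lay under the olfactory percentile. Measured from the array's median olfactory receptor signal, Cdkn2b stood at 1.64 to 1.83 on the T4 arrays, below every earlier array, of which the lowest was at 2.30 (T0).

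**Figure D2:**
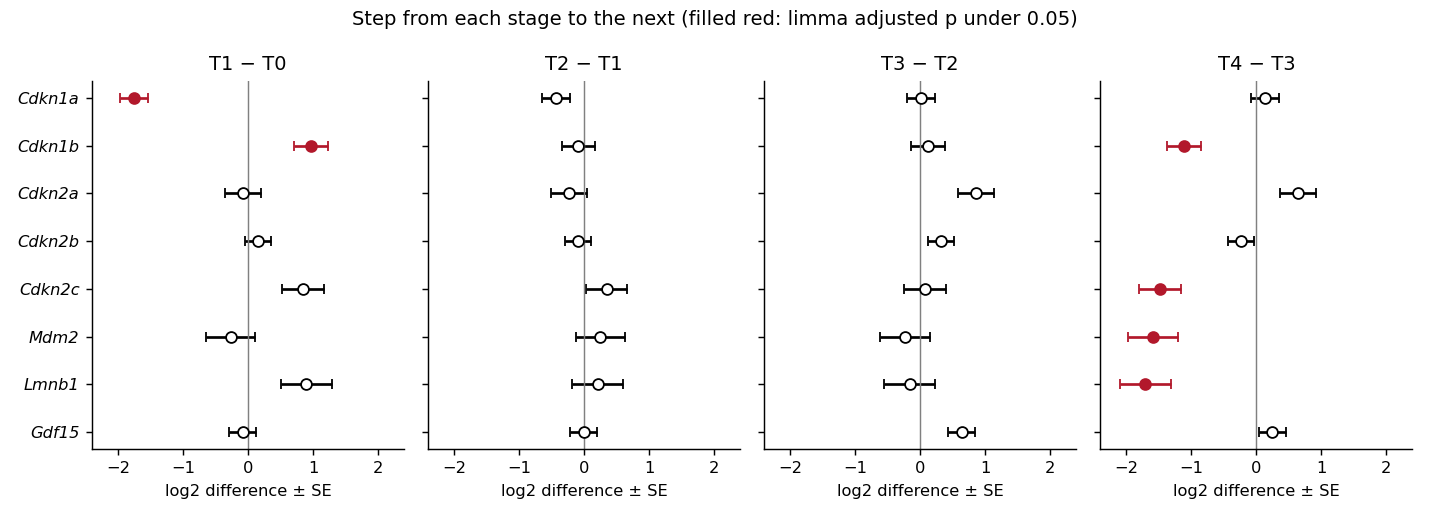
Differences of log2 stage means (horizontal axes) with their limma standard errors for the 8 genes, 1 panel for each step from a stage to the next; filled red points have a Benjamini-Hochberg adjusted p under 0.05. The first panel holds 2 called genes, Cdkn1a lower and Cdkn1b higher, the middle panels none, and the last 4, all lower.

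Of 8 measured G1 and S phase cyclins and kinases, on which these inhibitors act, none was called from T0 to T1 and 3 were from T0 to T2. Over that span, Cdk6, a target of the INK4 proteins, rose by 1.45 ± 0.27 (limma adjusted p = 0.00152), while the D-type cyclin genes moved down, Ccnd1 with -1.33 ± 0.33 (0.0145) and Ccnd2 with -1.20 ± 0.31 (0.0177). The list median was 0.62, against -0.02 over all genes. Without T4 replicate 1, 3 of the 8 rose from T0 to T1, and 1 did without T4 replicate 2, T3 replicate 2 or T3 replicate 3. Both falls from T0 to T2 were lost without T0 replicate 2, T0 replicate 3 or T2 replicate 2. The number that rose over that span was 4 without T4 replicate 1 and 3 without T4 replicate 2. Later, from T2 to T4, 7 of the 8 fell, among them Cdk4 with -2.09 ± 0.27 (limma adjusted p = 6.53e-05), and 2 after quantile normalization.

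The RB and E2F family stands downstream of the same kinases. From T0 to T1, 4 of 12 measured members rose, with 1.49 ± 0.26 for E2f8, a repressor E2F (limma adjusted p = 0.00172), and 1.48 ± 0.32 for Rbl1, which encodes the pocket protein p107 (0.00965). The count was 2 without any 1 of the 6 arrays of these stages, 7 without T4 replicate 1 and 1 after quantile normalization. By T2, 6 of 12 had risen and none had fallen, with a median of 0.88. In the span T2 to T4, 8 fell, 5 after quantile normalization, including Rbl1 with -2.37 ± 0.32 (limma adjusted p = 8.21e-05) and Tfdp1, a DNA-binding partner of the E2Fs, with -2.38 ± 0.38 (0.000205). E2f5 rose by 0.74 ± 0.29 (0.0428), a call that 14 alternatives lost, among them the fits without T0 replicate 3, T1 replicate 2 or 3, any 1 of the T2 arrays, or T4 replicate 1 or 2.

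Cdkn1b is degraded through the SCF-SKP2 ubiquitin ligase, and Cdkn2a is silenced by Polycomb repressors. None of 5 measured SCF-SKP2 genes was called from T0 to T2, and 4 fell from T2 to T4, among them the scaffold gene Cul1 with -2.39 ± 0.33 (limma adjusted p = 8.87e-05), with 2 left after quantile normalization. Of 10 Polycomb genes, 2 rose and 2 fell from T0 to T2. Ezh2, the histone methyltransferase, rose by 1.62 ± 0.44 (limma adjusted p = 0.0240), and Rnf2, a ubiquitin ligase of the complex, fell by 1.16 ± 0.21 on the log2 scale (0.00131). Quantile normalization left 1 of each, and the count that rose was also 1 without T0 replicate 1, T0 replicate 2 or any 1 of the 3 T2 arrays. From T2 to T4, 5 of the 10 Polycomb genes fell and none rose, beside 38.4% and 25% of all genes. The count that rose was 3 without T4 replicate 2, and 1 without T4 replicate 3, T3 replicate 1 or T3 replicate 2 and after quantile normalization. Ezh1, a paralogue of Ezh2, fell by 2.03 ± 0.26 on the log2 scale (limma adjusted p = 5.76e-05).

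Mdm2, the p53 ubiquitin ligase, was level until T3. Its signals were 7.50, 7.67 and 7.30 at T0, 7.32, 7.0 and 7.33 at T1, 7.49, 7.59 and 7.32 at T2 and 7.09, 6.99 and 7.63 at T3. These 4 stages overlapped one another. The difference T1 minus T0 was -0.27 ± 0.38 (limma adjusted p = 0.912), while Cdkn1a, which p53 also induces, fell over the same step.

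At T4 the Mdm2 signals were 4.51, 6.59 and 5.85. All 3 were below every earlier array, and their SD of 1.05 was larger than the 0.14 to 0.34 of the other stages. T4 minus T3 was -1.59 ± 0.38, a 3.0-fold lower signal (limma adjusted p = 0.00562), and T4 minus T2 was -1.82 ± 0.38, 3.53-fold lower (limma adjusted p = 0.00131). The second held in all 23 alternatives, with -1.50 after quantile normalization (limma adjusted p = 0.0269). On 2 of the 3 T4 arrays the signal lay under the olfactory percentile. The mean of the 7 chondrocyte markers went from 8.76 to 9.34 on the T2 arrays to 5.88 to 7.08 on the T4 arrays, and its part in this fall and in that of Lmnb1 was not tested.

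Other targets of p53 moved in both directions, as did genes over the whole array. Of 17 measured genes of that list, 2 fell from T0 to T1 and none rose, with a median of -0.24: Eda2r, a death receptor of the TNF family, with -1.499 ± 0.23 (limma adjusted p = 0.000674), and Phlda3, an inhibitor of AKT, with -1.38 ± 0.23 (0.00145). Without T3 replicate 3 or T4 replicate 1, 1 gene rose over that step. By T2, 3 had fallen, 6 without T4 replicate 1, and 2 had risen, Rrm2b, a ribonucleotide reductase subunit, by 1.22 ± 0.27 (0.00658) and Tp53inp1, a stress-induced nuclear protein, by 1.72 ± 0.46 (0.0209). The count that rose was 1 without T0 replicate 2, T0 replicate 3, T2 replicate 2 or T2 replicate 3. The signals of these pairs turned around from T2 to T4. Phlda3 rose by 1.69 ± 0.23 (limma adjusted p = 8.56e-05) and Eda2r by 0.84 ± 0.23 (0.00674), while Rrm2b fell, with -2.05 ± 0.27 (7.13e-05), as did Tp53inp1, with -2.56 ± 0.46 (0.00046). In that span 3 of 17 rose and 8 fell, beside 25% and 38.4% of all genes. After quantile normalization 5 rose and 5 fell. At T4 the stage means of 12 of the 17 genes lay under the mean olfactory percentile, against 3 at T2. Both Eda2r, with 5.61 at T4 and 4.77 at T2, and Phlda3, with 6.23 and 4.55, were among them at both stages. The median difference of the olfactory receptor genes from T2 to T4 was 0.84, and the part of such a shift in these rises was not tested.

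Lmnb1 encodes lamin B1, a protein of the nuclear lamina. Its signals were 7.39, 7.24 and 7.13 at T0, 8.30, 8.02 and 8.12 at T1, 8.19, 8.49 and 8.39 at T2 and 8.20, 7.93 and 8.44 at T3. The 9 arrays of T1 to T3 were all above the newborn arrays and overlapped among themselves. The difference T1 minus T0, 0.89 ± 0.39, was not called (limma adjusted p = 0.260), nor was T2 minus T0, 1.10 ± 0.39 (limma adjusted p = 0.0900).

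Those p-values depend on the T4 arrays, whose spread enters the pooled error. Without T4 replicate 1 the adjusted p for Lmnb1 was 0.00514 for T1 minus T0 and 0.000654 for T2 minus T0, and without all T4 arrays 0.00415 and 0.000562. Without T4 replicate 2 the second was called as well (0.0377). With only the 6 arrays compared they were 0.00517 and 0.00165 (limma, Benjamini-Hochberg).

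At T4 the Lmnb1 signals were 5.21, 7.35 and 6.90, below all arrays of T1 to T3 and overlapping T0. T4 minus T2 was -1.87 ± 0.39, a 3.65-fold lower signal (limma adjusted p = 0.00129), and T4 minus T3 was -1.70 ± 0.39 (limma adjusted p = 0.00441). After quantile normalization the first was -1.27 and not called (limma adjusted p = 0.0649). T4 replicate 1 was more than 1.5 below the other arrays of its stage.

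Among the 11 other lamina and envelope genes, Lbr and Lmna moved in opposite directions early. Lbr, the lamin B receptor, rose by 1.88 ± 0.33 from T0 to T1 (limma adjusted p = 0.002) and by 2.39 ± 0.33 from T0 to T2 (0.00015). Lmna, the A-type lamin gene, fell over both spans, with -1.07 ± 0.25 (0.0137) and -1.76 ± 0.25 (0.000169). They were the only ones called from T0 to T1 in the main test, and Lmna lost that call without T0 replicate 2, T0 replicate 3 or T1 replicate 3, while 1 more gene rose without T4 replicate 1. Lmnb2, the other B-type lamin gene, differed by -0.04 ± 0.27 (limma adjusted p = 0.991). Between T2 and T4, 8 of the 11 fell, 4 after quantile normalization, with -2.74 ± 0.37 for Zmpste24, the protease that matures prelamin A (limma adjusted p = 7.22e-05).

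Gdf15, the gene of a stress-induced cytokine of the TGF-beta superfamily, was low and even until T2. Its signals were 5.10, 5.07 and 5.27 at T0, 4.76, 5.18 and 5.23 at T1 and 5.04, 5.02 and 5.08 at T2. At T3 they were 5.65, 6.04 and 5.36, and at T4 6.02, 5.74 and 6.03. All 6 arrays of the elderly stages were above all 9 earlier arrays.

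The step of Gdf15 from T2 to T3, 0.64 ± 0.20, was not called (limma adjusted p = 0.125) and was called without T3 replicate 3 (0.0288). T4 minus T3 was 0.25 ± 0.20 (limma adjusted p = 0.346). Between T2 and T4, Gdf15 rose by 0.88 ± 0.20 (limma adjusted p = 0.00248), in 3 of 3 arrays and in all 22 alternatives that could test it. After quantile normalization the rise was 1.07 (limma adjusted p = 0.00161). Measured from the array's median olfactory receptor signal, however, Gdf15 stood at 2.13 ± 0.06 at T2, 2.47 ± 0.14 at T3 and 2.04 ± 0.36 at T4 (log2, SD, n = 3), so on that scale T2 and T4 overlapped. On the 3 T4 arrays it lay under the 95th percentile of the olfactory receptor genes.

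Gdf15 is a target of the integrated stress response and is listed among secreted senescence factors, and most genes of those lists did not move with it. Of 10 measured stress response genes, none rose and 4 fell from T2 to T4, including the kinase gene Eif2ak3 with -1.67 ± 0.27 (limma adjusted p = 0.000212) and the stress-induced gene Nupr1 with -2.45 ± 0.38 (0.000178). Of 15 measured senescence-associated secretory genes, 8 fell and 1 rose. Of all genes 38.4% fell and 25% rose over that span, and the 4 falls among 10 stress response genes lay near the first share. Timp1, a metalloproteinase inhibitor, fell by 2.97 ± 0.42 on the log2 scale (0.000101) and Cxcl1, a neutrophil chemokine, rose by 1.71 ± 0.23 (7.61e-05). The list medians were -0.44 and -0.88, against -0.12 over all genes. Quantile normalization left 5 of the 8 secretory falls, and the count that rose was 3 without T4 replicate 2, 2 without T4 replicate 3 and 0 under either filter on dim probe sets.

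From T0 to T1, when Cdkn1a fell, 10 of the 15 secretory genes were not called. Igfbp3, which binds insulin-like growth factors, fell over that step, with -2.72 ± 0.24 (limma adjusted p = 6.92e-06), and so did Ccl2, a monocyte chemokine gene, with -1.72 ± 0.30 (0.00194). In all, 3 of 15 fell and 2 rose, the chemokine gene Cxcl12 by 1.30 ± 0.29 (0.0101) and the cytokine gene Il1b by 1.03 ± 0.28 (0.0371). Neither rise was called without T0 replicate 2 or without T1 replicate 2, and 1 was called without T0 replicate 3, T1 replicate 1, T1 replicate 3 or T2 replicate 3.

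The higher signals of Cdkn1b, Cdkn2c and Lmnb1 at T1 to T3 coincided with those of genes of dividing cells. The mean of 18 proliferation markers was 7.22 ± 0.09 in the newborn, 8.56 ± 0.11 at T1, 8.65 ± 0.10 in the adult, 8.30 ± 0.20 at T3 and 6.79 ± 0.91 at T4 (log2, SD, n = 3). From T0 to T1, 9 of the 18 rose, 17 without T4 replicate 1, and none fell. Tpx2, a spindle assembly factor, rose by 1.95 ± 0.25 (limma adjusted p = 0.000196). Over the span T2 to T4, 17 of 18 fell, or 8 after quantile normalization, with -2.47 ± 0.30 for the checkpoint kinase gene Bub1 (limma adjusted p = 4.64e-05). Erythroid genes (5 of 5), myeloid genes (8 of 9) and B cell genes (3 of 3), which mark blood and marrow, rose over the same step from T0 to T1, and their part in the rise of Cdkn1b was not tested.

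**Figure D3:**
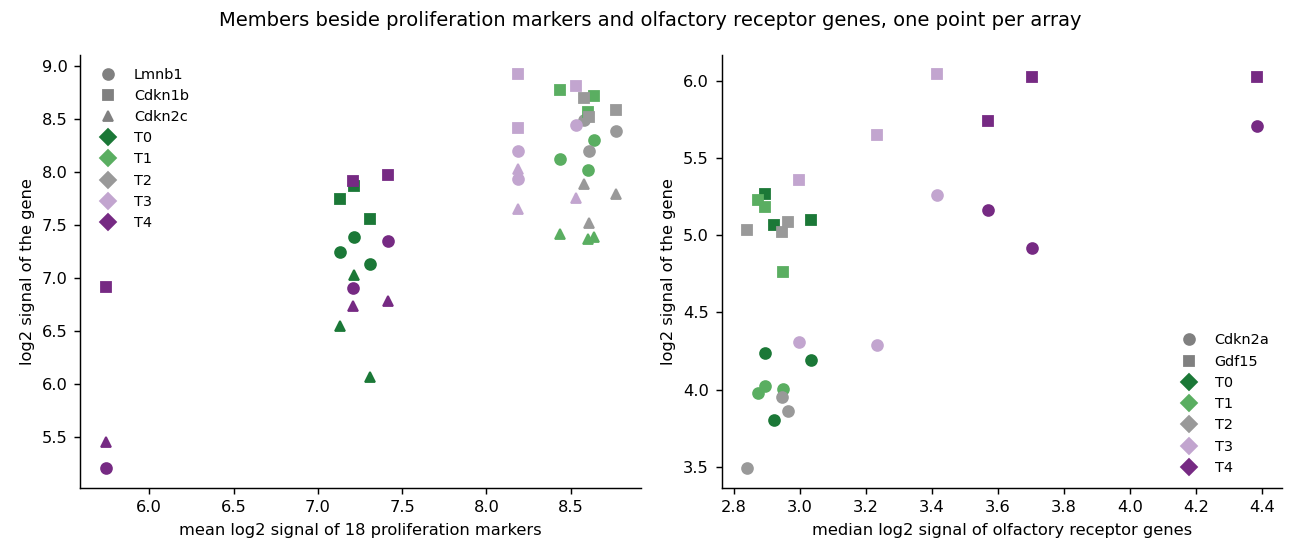
Log2 signal of a gene (vertical axes) on each of the 15 arrays, coloured by stage. The left panel sets Lmnb1 (circles), Cdkn1b (squares) and Cdkn2c (triangles) against the mean log2 signal of 18 proliferation markers, where the T1 to T3 arrays lie at the upper right and T4 replicate 1 alone at the lower left; the right panel sets Cdkn2a (circles) and Gdf15 (squares) against the median log2 signal of olfactory receptor genes, where the T3 and T4 arrays lie to the right of all earlier ones except the lowest T3 array, which is level with them.

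Across the 15 arrays, Cdkn1b and Lmnb1 correlated with r = 0.94, Cdkn1b and Cdkn2c with r = 0.92 and Cdkn2c and Lmnb1 with r = 0.92. Over the 9 arrays of T0 to T2 alone these were 0.96, 0.90 and 0.94. Cdkn1a ran against Lmnb1 there, with r = -0.94. Cdkn2a and Gdf15 correlated with r = 0.89 over 15 arrays and 0.28 over the 9 early arrays, so their likeness rests on the elderly stages. All these values share the arrays, and with them the stage differences and the narrower signal range of T4, and are descriptions.

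The genes most like each of the 8 were sought by Pearson's r over 15 arrays among 17467 genes. For Cdkn1a they were Agtr2, an angiotensin receptor gene (r = 0.983), Igfbp3 (0.982) and Eln, which encodes elastin (0.981), and over the 9 early arrays these values were 0.984, 0.984 and 0.986. For Lmnb1 they were Kif11, a mitotic kinesin gene (0.993), Ndc80, a kinetochore gene (0.993), and Tmem14c (0.990), with 0.993, 0.991 and 0.977 over the early arrays. For Cdkn1b they were Dlgap5 (0.980), Tfdp2 (0.969) and Cytip (0.969), and for Cdkn2c Dlgap5 (0.965), Hmgb2 (0.963) and Gadd45a (0.963). Dlgap5, a spindle protein gene, headed both.

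For Mdm2 the most alike were Ubl3 (r = 0.993), Zc3h15 (0.986) and Ctdspl2 (0.986), which over the 9 early arrays were at 0.918, 0.541 and 0.723. For Gdf15 they were Chmp4bl1 (0.979), Klk11 (0.972) and Gsc (0.954), with 0.850, 0.770 and 0.515 over the early arrays. The gene most like Cdkn2a was Or2m12, itself an olfactory receptor gene (0.969, and 0.732 over the early arrays), followed by Haus4-ps1 (0.964) and Hgd (0.963). For Cdkn2b the highest was Sytl5 (0.890), followed by Actr3b (0.880) and Armh1 (0.871), the weakest likenesses of the 8 genes.

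**Figure D4:**
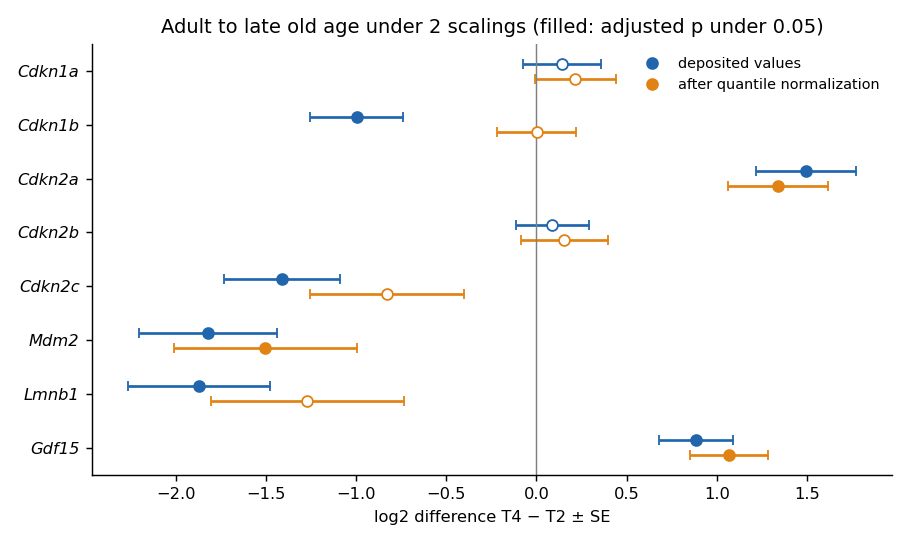
Difference of log2 stage means T4 minus T2 (horizontal axis) with its limma standard error for the 8 genes, from the deposited values (blue) and after quantile normalization (orange); filled points have a Benjamini-Hochberg adjusted p under 0.05. Cdkn2a, Gdf15 and Mdm2 are filled under both, Cdkn2c and Lmnb1 keep their direction and lose the call, and Cdkn1b goes from -0.997 to 0.0013.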

How the data were processed

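RNA of 15 samples was hybridised to Affymetrix RaGene 2.0 ST arrays. The deposited table holds log2 signals of 36685 probe sets, which the authors summarised by RMA according to the submitters' processing notes. This method equalises probe signals over arrays, which removes part of a change shared by most transcripts. No software version or genome build is stated in the labels. The annotation given with the table gave 18511 probe sets 1 gene symbol, 575 several and 17599 none. A gene's probe set with the highest mean stood for it.

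A mean per stage was fitted with limma 3.58.1 in R 4.3.3 (lmFit, eBayes, 10 residual degrees of freedom) and tested on simulated data. Benjamini-Hochberg adjustment took all probe sets together, separately for 6 comparisons and the F test. The number of arrays limits the precision. In the main fit a p-value sets a difference against the spread between samples of a stage, pooled over all 5 stages. T1 replicate 3 is youth in title and stage label but adult in its source name, and was kept in T1.

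The 8 genes and the 21 lists (10 pathway, 11 cell type, 171 of 198 genes measured) were chosen with earlier results of these data known. All 8 genes were named, as were up to 2 called genes of smallest p per list, direction and comparison. Some others, such as Lmnb2, were named after their values were seen. The 3 genes of highest r were named as most alike. The planned filter on dim probe sets used the 68 olfactory receptor genes with symbols in Olr. A filter with all 1185 olfactory receptor names was added after seeing the data, and those names give the percentiles in the text. Other alternatives were the replicate number as a block, quantile normalization, array weights, T1 replicate 3 placed with T2, no T4 arrays, only the 6 arrays compared, the mean of a gene's probe sets, and leaving out each array.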

Additional observations from a re-analysis of the deposited data

How the results depend on the processing

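For the 8 genes in 6 comparisons, 1045 values under alternatives kept direction and side of the threshold, 31 lost a call, 20 gained one, 21 values moved without a call and 1 reversed: Cdkn1b for T4 minus T2, at 0.0013 after quantile normalization. Among the 8 genes, quantile normalization left 4 calls in the F test, 3 for T4 minus T2 and 1 for T4 minus T3. Without the T4 arrays 4 were called in the F test and 4 for T1 minus T0. Array weights gave 4 for T1 minus T0 and 2 for T3 minus T2. T1 replicate 3 placed with T2 gave 1 for T1 minus T0, and only the 6 arrays compared gave 0 for T4 minus T3, against 4 in the fit to all arrays. Leaving out 1 array in turn gave 1 to 4 calls for T1 minus T0, 1 to 4 for T2 minus T0, 0 to 2 for T3 minus T2, 4 to 5 for T4 minus T3, 6 for T4 minus T2, 0 for T2 minus T1 and 7 in the F test.

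The labels do not say that replicate numbers pair samples. Deviations of same-numbered arrays from their stage means correlated with a mean r of -0.0173, over 0.1 in 1 of 30 pairs. For other numbers the mean r was 0.0087, over 0.1 in 7 of 60 pairs. These values show no shared effect of the number, but cannot show that samples were not handled together. With the replicate block 1 of the 8 genes was called for T1 minus T0, as Cdkn1b reached 0.0556, and 32 probe sets of all for T3 minus T2. Cdkn1b reached 0.0585 for T2 minus T0.

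Over all probe sets, array weights called 6852 (T1 minus T0), 9230 (T2 minus T0), 2381 (T2 minus T1) and 10464 (T3 minus T2), against 2772, 4659, 327 and 55. Only the 6 arrays compared called 5358, 7131, 596 and 0, and 2532 of 15493 for T4 minus T3. Without the T4 arrays 604 were called for T2 minus T1, 1895 for T3 minus T2 and 9366 in the F test, against 22043. Quantile normalization called 147 for T2 minus T1 and 10 for T3 minus T2. T1 replicate 3 placed with T2 called 1777 for T1 minus T0 and 9 for T2 minus T1. The planned filter on dim probe sets, which tests 17249, called 13472 in the F test, 154 for T3 minus T2, 11681 for T4 minus T2 and 9876 for T4 minus T3. The added filter, which tests 21605, called 156 for T3 minus T2 and 13815 for T4 minus T2, against 20728. Leaving out 1 array gave 1796 to 3846 (T1 minus T0), 3508 to 6042 (T2 minus T0), 108 to 674 (T2 minus T1), 0 to 4165 (T3 minus T2), 17626 to 21690 (T4 minus T2), 11534 to 17507 (T4 minus T3) and 19908 to 23151 (F test). The cause was not tested, except that filters test fewer probe sets and fits with fewer arrays hold less data. Signals under the olfactory percentile are the least secure. They are those of Cdkn2a on all arrays and of Cdkn1a, Cdkn2b and Gdf15 at T4. Those of Mdm2 on 2 T4 arrays, of Cdkn2c and Lmnb1 on T4 replicate 1 and of Gdf15 on 1 T1 array belong here too.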
